A study of Homo sapiens with 6 samples.

Results

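The motile cilia axoneme genes described here are the 71 human genes whose symbols name a dynein axonemal heavy chain (DNAH, 13 genes), a dynein axonemal intermediate chain (DNAI, 5 genes), a cilia and flagella associated protein (CFAP, 44 genes) or a radial spoke component (RSPH, 9 genes), out of 38606 human features in the tables. The rule used symbols alone and no measured value, though earlier results of these data were known when it was set. One of them, RSPH1-DT, is a divergent transcript beside RSPH1 that the symbol rule takes in, and it had 1 UMI (unique molecular identifier, a counted transcript molecule) in all 6 libraries. RSPH6A had 98 UMIs, and the other 69 genes had at least 100.

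The data came from teratomas, tumours of mixed tissues that human embryonic stem cells form after injection into a mouse. H1 cells, an established human embryonic stem cell line, were injected with matrigel into the flank of immunodeficient NSG mice, and nuclei of the frozen tumours were profiled with droplet-based 3′ single-nucleus RNA-seq. There were 3 groups with 2 libraries each, named for the state of the long noncoding RNA gene LNCPRESS1: DATG (ΔATG in the series text), KO (knockout) and WT (wild type). The labels do not give the treatment of the ATG any further, nor whether the 2 libraries of a group came from separate tumours or cell clones, so a p-value here measures only the spread between these libraries.

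The axoneme is the microtubule core of a cilium. In a motile cilium, outer and inner rows of dynein arms on the peripheral doublets slide neighbouring doublets past each other, and radial spokes, a central apparatus and regulatory tethers coordinate that sliding. Microtubule inner proteins line the inside of the doublets and stabilise them. In the nervous system, choroid plexus epithelium and ependyma carry motile cilia, and floor plate cells at the ventral midline carry them in several vertebrates. Regulators of the RFX family bind X-box motifs and FOXJ1 binds forkhead motifs in the promoters of many of these genes.

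The 6 libraries held 35785812 to 47574535 UMIs in 6504 to 13489 barcodes. Human nuclei used here numbered 49794, of which 10931 and 5793 came from DATG, 9281 and 7440 from KO and 5296 and 11053 from WT libraries (replicates 1 and 2). Any pair of libraries shared 12 to 51 of its barcodes. DATG replicate 2 stood apart: 3649 of its 10288 barcodes were mixed human and mouse, against 513 to 1095 in each of the other 5 libraries, and the gene-wise correlation of log2 CPM (a gene's UMIs scaled to a common total of human UMIs) between replicates was 0.907 in DATG, 0.979 in KO and 0.977 in WT. The mitochondrial share of human UMIs was 0.509% and 0.528% in DATG, 0.167% and 0.113% in KO and 0.171% and 0.0752% in WT libraries. LNCPRESS1 itself had 1 and 3 UMIs in DATG, 2 and 0 in KO and 8 and 2 in WT libraries, too few to check the labels.

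Promoter sequence was examined as a feature shared by the genes that the symbol rule did not use. RefSeq promoter windows (GRCh38.p14, 250 bases before to 50 bases after the start) were matched by symbol for 61 of the 71 genes. An X-box pattern, GTTNCC followed after any 2 bases by GGNNAC and searched on both strands, was in the windows of 8 of these 61 genes (13.1%), against 1.79% of 27305 genes with a window. The windows below show those 8 matches, 80 bases each as read on the gene's own strand, with the match in capitals. Where the match lies on the opposite strand, as in DNAH11 and RSPH9, the capitals show its reverse complement. The match ended 4 to 137 bases before the start.
DNAH1 (chr3:52316181-52316260, plus strand): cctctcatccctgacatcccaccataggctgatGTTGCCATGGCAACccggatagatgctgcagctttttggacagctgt
DNAH2 (chr17:7717664-7717743, plus strand): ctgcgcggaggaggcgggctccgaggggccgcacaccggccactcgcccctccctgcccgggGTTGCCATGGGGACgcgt
DNAH11 (chr7:21542959-21543038, plus strand): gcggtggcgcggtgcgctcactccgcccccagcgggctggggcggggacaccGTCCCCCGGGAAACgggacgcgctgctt
DNAH12 (chr3:57544345-57544424, minus strand): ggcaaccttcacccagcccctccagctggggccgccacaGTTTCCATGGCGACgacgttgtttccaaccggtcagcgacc
RSPH9 (chr6:43644852-43644931, plus strand): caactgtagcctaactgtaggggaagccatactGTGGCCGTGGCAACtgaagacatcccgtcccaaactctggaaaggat
CFAP45 (chr1:159900166-159900245, minus strand): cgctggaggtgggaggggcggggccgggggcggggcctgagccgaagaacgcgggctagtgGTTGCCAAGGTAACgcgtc
CFAP100 (chr3:126394829-126394908, plus strand): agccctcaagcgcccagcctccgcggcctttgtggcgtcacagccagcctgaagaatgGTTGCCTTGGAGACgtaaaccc
CFAP251 (chr12:121918512-121918591, plus strand): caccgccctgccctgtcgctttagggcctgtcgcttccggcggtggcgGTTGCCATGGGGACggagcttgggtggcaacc
The DNAH1 match reads the same on both strands, and the CFAP45 match also fits the pattern on both. DNAH12, CFAP45, CFAP100 and DNAH11 were concentrated in a pair of clusters described below, while DNAH1, DNAH2, RSPH9 and CFAP251 had under 20% of their UMIs there. A match describes letters in a window and was not tested as a binding site.

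The shorter core GTTGCC was present in 32 of the 61 windows (52.5%), against 14.6% of all genes. With a T before it (TGTTGCC) it was in 9 windows (14.8% against 4.20%), with ATG after it in 6 (9.84% against 1.00%) and with ATGG after it in 6 (9.84% against 0.73%). GTTNCC followed by ATGG was in 7 (11.5% against 1.31%), and GTTGCT followed by ATGG in 1, that of RSPH4A (1.64% against 0.24%). The 6 other spellings of the whole X-box, which fix or free single bases, were in 1 to 9 windows (1.64% to 14.8%), against 0.12% to 2.51% of all genes. These spellings are nested, so their counts are not independent. The forkhead core TGTTTAC was in 3 windows, those of CFAP126, CFAP43 and DNAH9 (4.92% against 4.19%), and TGTTTGC in 3 (4.92% against 4.76%), shares close to those of all genes.

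To ask which cell types carried the axoneme genes, human nuclei were clustered with these 71 genes left out of the genes used. Of 29 clusters, 2 stood above the rest in summed level and are called the axoneme-rich clusters here. The first, with 1393 nuclei, was named floor plate-like from markers that include FOXA2, SHH, CORIN, SPON1 and NTN1, and the second, with 1383 nuclei, choroid plexus and cortical hem-like from TTR, CLIC6, HTR2C, OTX2, KCNJ13, RSPO2, WNT8B, LMX1A, PCP4 and CA2 (10 of 12 markers). The second cluster is called choroid plexus-like below for short, though its markers also include those of cortical hem. Markers of ciliated cells outside the 71 genes also passed, 10 of 18 in floor plate-like and 7 of 18 in choroid plexus-like nuclei. These markers were not left out of the clustering. A larger share of another list passed in each cluster, 6 of 8 floor plate and 10 of 12 choroid plexus and cortical hem markers. That list gave the name, and no cluster was named ciliated-like. FOXJ1, the master regulator of motile ciliogenesis, was at 13.7 CPM in floor plate-like nuclei, against 1.496 CPM in all others, and at 10.1 CPM in choroid plexus-like nuclei, against 1.61 CPM in all others, and did not reach the marker minimum of 20 CPM. By library FOXJ1 was highest in DATG replicate 1, at 25.9 CPM in floor plate-like and 24.4 CPM in choroid plexus-like nuclei. In the other libraries it was at 0 to 6.98 CPM and at 0 to 9.93 CPM, in that order. SNTN and TMEM212, markers of mature multiciliated cells, were under 1 CPM in both clusters, summed over libraries.

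The 71 genes together stood at 4369 CPM in floor plate-like nuclei and 5249 CPM in choroid plexus-like nuclei. The next clusters were a general epithelium-like one at 1854, an unnamed one at 1797 and a squamous epithelium-like one at 1720 CPM, and the lowest was the blood and immune-like cluster at 574 CPM. By library, among clusters with at least 20 nuclei in it, the same 2 clusters led in 5 of 6. Choroid plexus-like nuclei were first in all libraries but WT replicate 2, at 7660.5 and 2970.1 CPM in DATG, 4797 and 5151 CPM in KO and 5254 CPM in WT replicate 1, and floor plate-like nuclei were first in WT replicate 2 at 5220.4 CPM, with choroid plexus-like nuclei second at 4698 CPM. Floor plate-like nuclei came second elsewhere, except in DATG replicate 2, which had only 12 of them, at 4319.9 CPM. Since the clusters were drawn from the same nuclei, these levels are descriptions with no test.

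**Figure D1:**
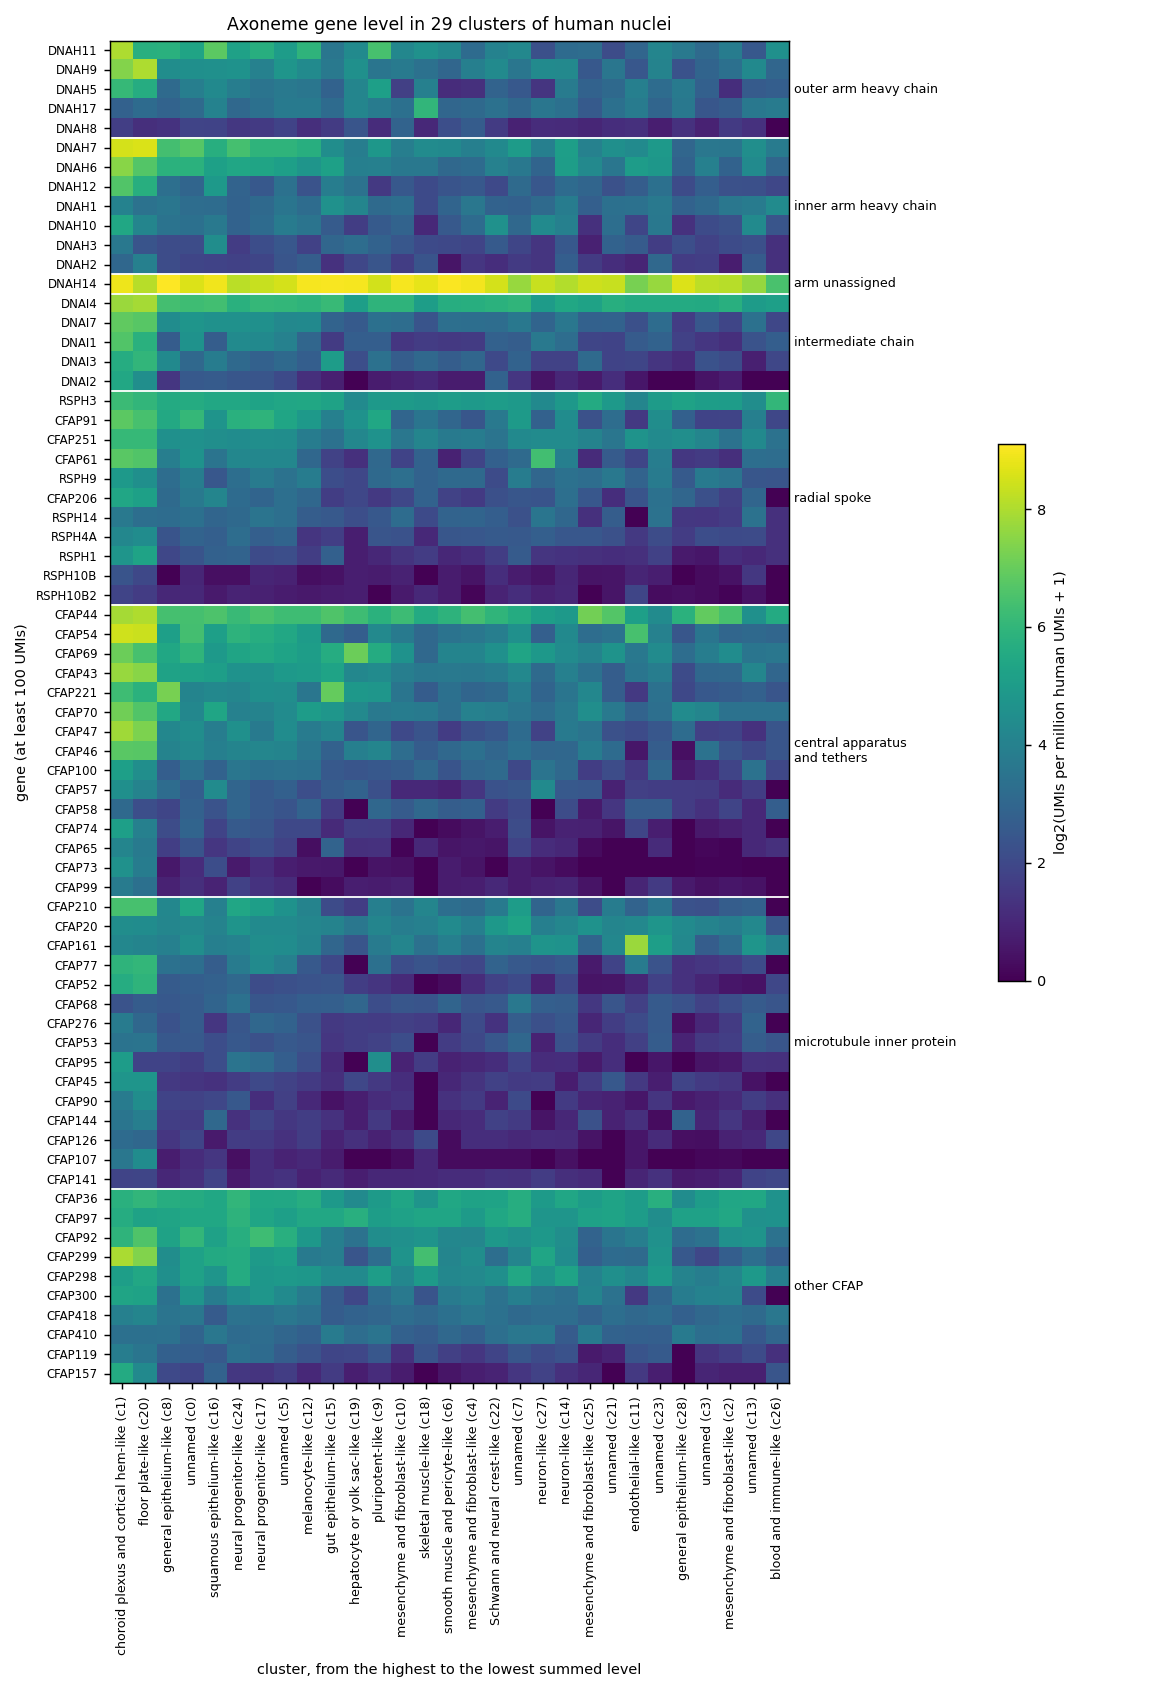
Level of each of 69 axoneme genes (at least 100 UMIs) in 29 clusters of human nuclei, as log2 of CPM plus 1, with genes grouped by role and clusters ordered by summed level. The choroid plexus and cortical hem-like and floor plate-like columns at the left are brightest for most genes, while DNAH14 is high nearly everywhere, CFAP161 peaks in the endothelial-like column and DNAH17 in the skeletal muscle-like column.

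The floor plate-like and choroid plexus-like nuclei were 5.57% of human nuclei and held 5.97% of human UMIs but 19.9% of the 280041 UMIs of the axoneme genes. DNAH14, a heavy chain not firmly assigned to an arm, gave 72168 of those UMIs by itself, with 5.98% of them in these clusters. Without DNAH14 the share was 24.8%. Across the 69 genes the median share of UMIs in these clusters was 22.4%, against 5.52% across 23485 human genes with at least 100 UMIs. The clusters were picked by the summed level of these same genes. Shares above those of all genes were therefore partly set by that choice and are no test. At a threshold of 20%, chosen after the values were seen, 39 of the 69 genes were concentrated there, against 1.85% of those 23485 genes. The genes just inside were CFAP91 at 21.3%, RSPH4A at 21.1% and DNAI4 at 20.1%, and those just outside were CFAP251 at 19.99%, RSPH10B2 at 19.7% and DNAH2 at 19.6%. UMI totals grew with the length of the gene on the genome (Pearson's r 0.53, Spearman's rho 0.52 over 69 genes, on log2 scales), so totals of different genes are not compared as levels here.

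Among the outer arm heavy chains, which drive the beat, DNAH9, DNAH5 and DNAH11 had 46.6%, 29.8% and 27.8% of their UMIs in the axoneme-rich clusters. DNAH9 reached 251 CPM in floor plate-like, 170.4 CPM in choroid plexus-like and 15.4 CPM in all other nuclei. DNAH11 was higher in the second of these, with 52.4 CPM in floor plate-like and 250.2 CPM in choroid plexus-like nuclei, and it was also seen in squamous epithelium-like nuclei at 110.9 CPM and pluripotent-like nuclei at 86.8 CPM. The other outer arm chains, DNAH17 and DNAH8, which serve the sperm tail, had only 4.76% and 4.64% of their UMIs in the axoneme-rich clusters.

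Among the 7 inner arm heavy chains, which shape the bend, 3 were concentrated: DNAH12 (41.1%), DNAH7 (39.7%) and DNAH6 (26.5%). DNAH7 stood at 382 CPM in floor plate-like, 365 CPM in choroid plexus-like and 103 CPM in the unnamed cluster c0. DNAH12 stood at 50.9 CPM in floor plate-like and 99.4 CPM in choroid plexus-like nuclei, against 6.83 CPM elsewhere. DNAH1 (7.42%) and DNAH3 (10.7%) were not concentrated. DNAH3 was highest in squamous epithelium-like nuclei at 21.3 CPM.

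All 5 intermediate chains, which dock and regulate the motors, were concentrated. DNAI2, an outer arm chain, had 53.4% of its UMIs in the axoneme-rich clusters and DNAI1, its outer arm partner, 38.6%. DNAI7 had 37.1%, DNAI3 33.9% and DNAI4 20.1%. DNAI1 was at 54.3 CPM in floor plate-like and 97.4 CPM in choroid plexus-like nuclei, against 7.66 CPM elsewhere.

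Of 11 radial spoke genes with at least 100 UMIs, 6 were concentrated, with a median share of 21.1%. The spoke head gene RSPH1 had 45.6%, the spoke base gene CFAP61 39.4% and CFAP206 29.1%, while RSPH3, a stalk protein, was spread over the clusters at 11.0%. RSPH1 stood at 37.9 CPM in floor plate-like and 26.1 CPM in choroid plexus-like nuclei, against 2.42 CPM elsewhere. RSPH10B and RSPH10B2 are near-identical copies, so reads may be split or lost between them and their values are uncertain.

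Of the central apparatus and tether genes, 11 of 15 passed 20%, with a median of 37.0%. CFAP73, part of a tether that modulates inner arms, had 70.6% of its 299 UMIs in the axoneme-rich clusters, CFAP47 54.8% of 4031 and CFAP54 45.6% of 8665. CFAP54, a central apparatus protein, stood between 217 and 433 CPM in floor plate-like nuclei of the 5 libraries with enough of them, and between 197 and 556 CPM in choroid plexus-like nuclei of all 6. CFAP44 (17.1%), CFAP69 (18.7%), CFAP221 (16.1%) and CFAP58 (8.47%) were below the threshold. CFAP69 was as high in hepatocyte or yolk sac-like nuclei, at 132.5 CPM, as in choroid plexus-like nuclei, at 132.0 CPM.

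Of the 15 microtubule inner proteins, 9 were concentrated (median 27.7%), led by CFAP107 (68.1% of 270 UMIs) and CFAP52 (57.7% of 1098 UMIs). CFAP210, with 3784 UMIs the most counted of them, had 26.8% there and stood at 87.8 CPM in floor plate-like and 86.9 CPM in choroid plexus-like nuclei, against 15.2 CPM elsewhere. CFAP20 (6.81%), CFAP161 (5.60%) and CFAP68 (5.83%) were not concentrated. The 10 remaining CFAP genes, among them assembly factors and genes of other ciliary or retinal roles, had a median of 11.9%, and only CFAP157 (58.6%) and CFAP299 (38.8%) were concentrated. CFAP36 (8.54%), CFAP97 (6.87%), CFAP298 (8.88%) and CFAP410 (6.82%) stood nearer to the 5.97% of all human UMIs in those clusters.

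Several genes peaked outside the axoneme-rich clusters. Of 69 genes, 20 were highest in floor plate-like nuclei, 34 in choroid plexus-like nuclei and 15 elsewhere. The same split over all genes is not given here, so these counts only describe the 69 genes. CFAP161, a microtubule inner protein, was at 211.5 CPM in endothelial-like nuclei, and its next cluster was at 33.2 CPM. Its endothelial-like level was 263 and 169 CPM in DATG, 402 and 75.2 CPM in KO and 191 and 236 CPM in WT libraries, against 8.77 to 20.5 CPM in all other nuclei of each library. Every library showed the peak. DNAH17 was at 63.2 CPM in skeletal muscle-like nuclei and at 16.9 CPM in the next cluster. By library it was at 110.0 and 15.7 CPM there in DATG, 64.9 and 64.2 CPM in KO and 17.9 and 0 CPM in WT, where WT replicate 2 had 1 such nucleus. CFAP221, a central apparatus protein, was at 149.6 CPM in general epithelium-like cluster c8 and 124.1 CPM in gut epithelium-like nuclei, above 76.8 CPM in choroid plexus-like nuclei. In the other general epithelium-like cluster, c28, it was at 2.97 CPM. Secondary peaks appeared for CFAP299 in skeletal muscle-like nuclei (83.3 CPM), CFAP61 in a neuron-like cluster (80.4 CPM) and CFAP95 in pluripotent-like nuclei (21.7 CPM).

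The axoneme-rich clusters differed from each other in the levels of single axoneme genes. Over the 5 libraries with at least 20 nuclei in both, 65 genes had at least 50 UMIs in the 2 clusters together. Of these, 2 (CFAP68 and CFAP92) were higher in floor plate-like nuclei in all 5 libraries and 15 were higher in choroid plexus-like nuclei in all 5. The shares over all genes are not given here, so these counts are not read as a trait of axoneme genes. The levels that follow are summed over all 6 libraries, with DATG replicate 2 in them. CFAP95, a microtubule inner protein, was at 2.56 CPM in floor plate-like and 32.2 CPM in choroid plexus-like nuclei, a log2 ratio of -3.65. DNAH11 followed with a log2 ratio of -2.25, then DNAH3 (-1.49), DNAH10 (-1.32), CFAP157 (-1.31) and CFAP74 (-1.21). CFAP92 stood at 94.97 CPM in floor plate-like and 59.3 CPM in choroid plexus-like nuclei. DNAH9, CFAP107 and DNAH2 had more in floor plate-like nuclei summed over libraries, but not in all 5. These are descriptions of clusters and carry no test.

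Single nuclei also differed in how many axoneme genes they showed. With each nucleus thinned to 1500 UMIs and 9147 shallower nuclei left out, 54.2% of 1306 floor plate-like and 39.9% of 1215 choroid plexus-like nuclei had UMIs of at least 5 of the genes, against 2.76% of 38126 other nuclei. Endothelial-like nuclei, taken as a type that should lack motile cilia, gave 1 of 371 (0.27%), with a median depth of 3972 UMIs before thinning, against 3333 in floor plate-like and 3093 in choroid plexus-like nuclei. Of the 2247 nuclei with at least 5 genes, 708 were floor plate-like, 485 choroid plexus-like and 1054 elsewhere, most often in the unnamed cluster c0 (302) and a neural progenitor-like cluster (168). Over all nuclei, 900 had exactly 5 and 2045 exactly 4. The floor plate-like and choroid plexus-like clusters were picked by these same genes, so their shares are descriptions with no test.

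**Figure D2:**
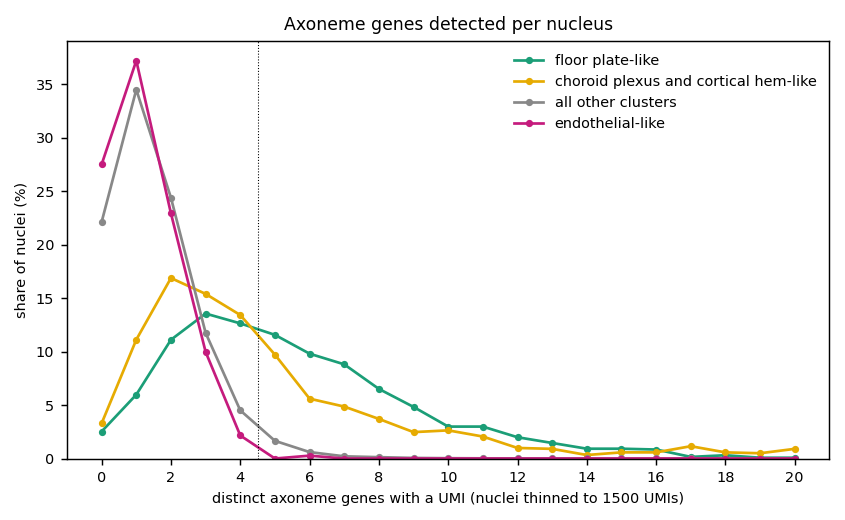
Share of nuclei (%) by the number of distinct axoneme genes with a UMI, after thinning each nucleus to 1500 UMIs, for floor plate-like, choroid plexus and cortical hem-like, all other, and endothelial-like nuclei. The dotted line marks the limit of 5 genes, above which lie 54.2% of floor plate-like and 39.9% of choroid plexus-like nuclei but 2.76% of the others.

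The next question was whether the groups differed. The share of nuclei with at least 5 genes was 7.23% (95% exact binomial interval 6.70 to 7.79%) and 2.87% (2.40 to 3.41%) in DATG, 5.37% (4.88 to 5.90%) and 5.67% (5.12 to 6.25%) in KO, and 5.92% (5.24 to 6.66%) and 4.96% (4.51 to 5.44%) in WT libraries; the intervals cover counting error only. The highest and the lowest library were both DATG, so the groups overlapped. Unthinned shares were 20.5% and 18.1% in DATG, 24.3% and 31.8% in KO and 38.7% and 18.2% in WT libraries, where median depth was 2526 and 2717 UMIs in DATG, 2578 and 3791 in KO and 3934.5 and 2533 in WT; the part of depth in these shares was not tested.

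Over all human nuclei, the summed level of the 71 genes on TMM-scaled library sizes was 1599.7 and 1280.4 CPM in DATG, 1328 and 1438 CPM in KO and 1569 and 1312 CPM in WT libraries. Means were 1440.1 ± 226 CPM in DATG, 1383 ± 78.1 CPM in KO and 1440.3 ± 182 CPM in WT (SD, n = 2 each). The log2 ratios were -0.06 for KO over WT, 0.00 for DATG over WT and 0.06 for DATG over KO, within the pooled SD of 0.17 on the log2 scale. In a sum over all nuclei, fewer nuclei of a type and fewer transcripts per nucleus cannot be told apart. The 39 concentrated genes alone summed to 737 and 326 CPM of total human UMIs in DATG, 554 and 594 CPM in KO and 652 and 535 CPM in WT libraries, so DATG replicate 2 was lowest and DATG replicate 1 highest.

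**Figure D3:**
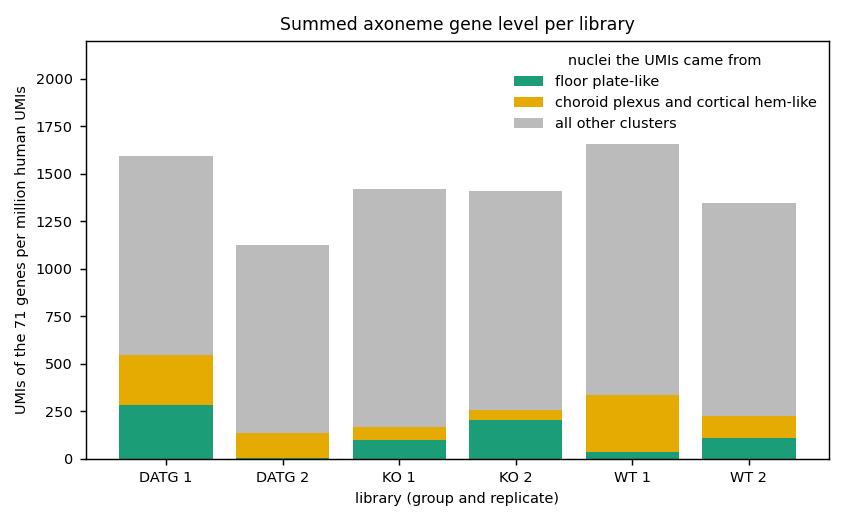
UMIs of the 71 axoneme genes as CPM of all human UMIs in each of the 6 libraries (DATG, KO and WT, replicates 1 and 2), stacked by the nuclei they came from. Nuclei outside the axoneme-rich clusters contribute 994 to 1323 CPM in each library, and DATG replicate 2 has almost none from floor plate-like nuclei.

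The size of the axoneme-rich clusters was compared next. Floor plate-like nuclei were 4.89% and 0.21% of human nuclei in DATG, 2.98% and 3.97% in KO and 1.11% and 1.95% in WT libraries. Both KO libraries lay above both WT libraries, while the DATG libraries were the highest and the lowest of all. Choroid plexus-like nuclei were 2.87% and 5.42% in DATG, 1.53% and 1.01% in KO and 5.40% and 2.28% in WT libraries, lowest in KO. In DATG replicate 2 these nuclei had TTR at 7.1 CPM, against 621 to 4175 CPM in the other libraries. RSPO2 was at 2424 CPM there, the highest of the 6 libraries. The 5.42% thus counts the cluster as drawn, and how much of it is choroid plexus was not tested. No share passed edgeR's quasi-likelihood test with Benjamini-Hochberg adjustment over 23 classes. For floor plate-like nuclei the log2 fold change was 1.18 for KO over WT (adjusted p = 0.698), 0.74 for DATG over WT (adjusted p = 0.995) and -0.44 for DATG over KO (adjusted p = 0.880). For choroid plexus-like nuclei it was -1.59 (adjusted p = 0.591), 0.11 (adjusted p = 0.995) and 1.71 (adjusted p = 0.536) in the same comparisons. The DATG signs for floor plate-like nuclei rest on single libraries: without DATG replicate 1, DATG over WT was -2.88, and without DATG replicate 2, DATG over KO was 0.49. For choroid plexus-like nuclei, clustering at resolution 0.5 gave 0.43 for KO over WT, -0.52 for DATG over WT and -0.95 for DATG over KO, but the cluster of that name then held 8210 nuclei, against 1383 here, and also met neural progenitor and mitotic markers, so it is a wider population.

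**Figure D4:**
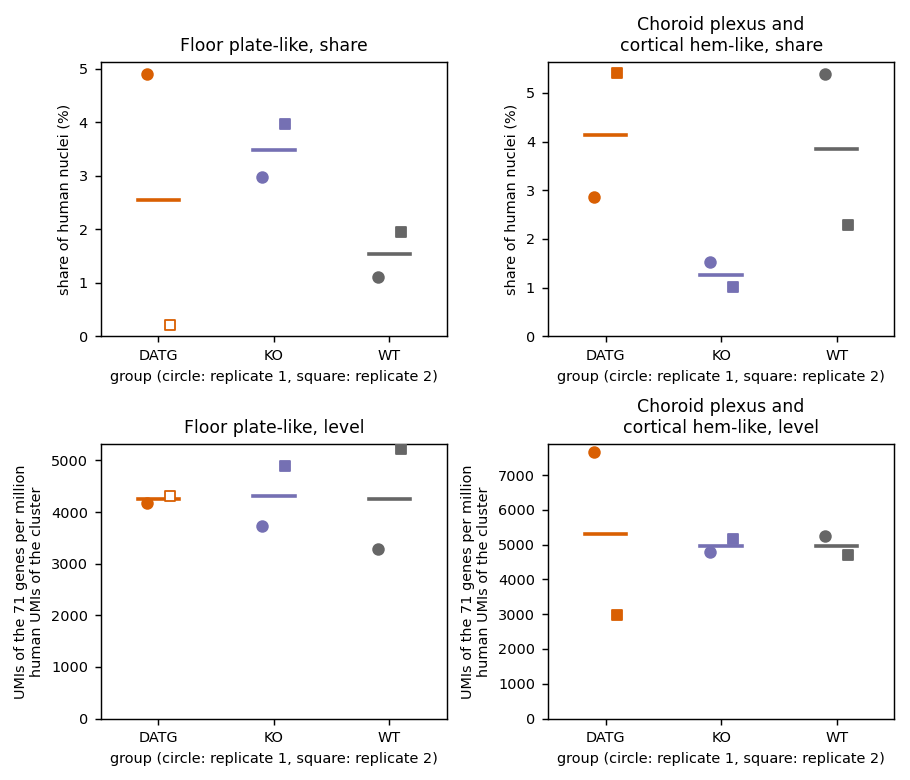
Share of human nuclei (%, top) and summed level of the 71 axoneme genes as CPM of the cluster (bottom) in floor plate-like (left) and choroid plexus and cortical hem-like nuclei (right), with 1 point per library, the line at the group mean and DATG, KO and WT from left to right. The open point is DATG replicate 2 with 12 floor plate-like nuclei, and DATG replicates lie at both ends of the choroid plexus-like levels, 7660.5 and 2970.1 CPM.

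No axoneme gene passed the test for a change between KO and WT over all human nuclei. Of 70 genes tested by edgeR's quasi-likelihood test, 0 passed an adjusted p of 0.05, where 0% of 26608 genes did, and 1 had an unadjusted p under 0.05, where 4.75% of all genes did. That gene was CFAP221, at 18.3 and 30.1 CPM in DATG, 14.6 and 13.9 CPM in KO and 47.5 and 25.5 CPM in WT libraries. Its log2 fold change for KO over WT was -1.36 (SE 0.40, adjusted p = 1.00 by edgeR). Of its UMIs, 18.6% lay in 1 of the 2 general epithelium-like clusters (c8), which had 3 and 33 nuclei in KO and 285 and 315 in WT libraries, and 20.9% in the gut epithelium-like cluster, which had 11 and 51 nuclei in KO and 289 and 811 in WT. Within c8, CFAP221 was at 0 and 92.2 CPM in KO (0 and 29 UMIs) and 147 and 172 CPM in WT libraries. Within gut epithelium-like nuclei it was at 35.3 and 49.0 CPM in KO (1 and 12 UMIs) and 153 and 111 CPM in WT. In all other clusters, c28 (the second general epithelium-like one) included, it was at 15.6 and 12.7 CPM in KO. The WT levels there were 27.4 and 12.6 CPM, so the groups overlapped. The part of cluster size in the CFAP221 fold change was not tested. DESeq2 called 144 genes (0.541%) and 0 axoneme genes.

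Between KO and WT, 39 of the 70 genes had a log2 fold change above 0 and the median was 0.03, against 0.01 over all genes. The 2 KO libraries lay above both WT libraries for 14 genes (20%, against 23.4% of all genes) and below both for 14 (20%, against 22.2%). By p, the first of the higher ones was DNAH2, an inner arm chain, which averaged 3.75 ± 0.347 CPM in KO and 2.64 ± 0.377 CPM in WT (SD, n = 2 each; log2 fold change 0.51, SE 0.39). CFAP58 (0.47, SE 0.38) came next, then the assembly factor CFAP298, which averaged 29.8 ± 1.82 CPM in KO and 23.7 ± 1.87 CPM in WT (0.33, SE 0.29), and DNAI1 (0.42, SE 0.38). Among the lower ones after CFAP221, CFAP70 averaged 18.1 ± 1.64 CPM in KO and 22.8 ± 1.16 CPM in WT (-0.33, SE 0.23), and DNAH11 29.2 ± 1.33 CPM in KO and 35.6 ± 0.180 CPM in WT (-0.28, SE 0.20). CFAP65 followed at -0.56 (SE 0.43). None of these passed the test, with adjusted p of 1.00 for each in edgeR's fit.

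For DATG against WT, 0 of 70 genes passed, where 0% of 26608 genes did, and 0 had an unadjusted p under 0.05, where 2.99% of genes did. DESeq2 called 90 genes (0.338%) and 0 axoneme genes. Log2 fold changes were above 0 for 34 genes, with a median of -0.02 against 0.03 over all genes. The DATG libraries lay above both WT libraries for 4 genes (5.71%, against 11.8% of genes) and below both for 6 (8.57%, against 11.7%). The 4 higher ones were CFAP70, at 27.1 and 31.3 CPM in DATG and 23.6 and 21.9 CPM in WT, CFAP20, CFAP251 and DNAH2, with log2 fold changes of 0.29 to 0.41. CFAP91, a spoke-associated protein, was at 23.6 and 17.1 CPM in DATG and 33.4 and 26.3 CPM in WT libraries (log2 fold change -0.55, SE 0.27, adjusted p = 1.00 by edgeR). CFAP74, DNAI3 and CFAP69 were the other lower ones listed by p, at -0.74, -0.76 and -0.26.

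For DATG against KO, 0 of 70 genes passed, where 0% of 26608 genes did, and 1 had an unadjusted p under 0.05, where 6.11% of genes did. DESeq2 called 76 genes (0.286%) and 0 axoneme genes. The 1 gene was CFAP70, a central apparatus gene, at 27.1 and 31.3 CPM in DATG and 16.9 and 19.3 CPM in KO libraries (log2 fold change 0.69, SE 0.23, adjusted p = 0.671 by edgeR). Log2 fold changes were above 0 for 33 genes, with a median of -0.04 against 0.03 over all genes. The DATG libraries lay above both KO libraries for 13 genes (18.6%, against 20.6% of genes) and below both for 6 (8.57%, against 21.5%). CFAP44, a tether protein, averaged 109 ± 27.4 CPM in DATG and 71.9 ± 12.2 CPM in KO, and CFAP91 20.3 ± 4.59 CPM in DATG and 30.8 ± 0.427 CPM in KO (SD, n = 2 each). CFAP410 (0.74), CFAP221 (0.76), CFAP161 (-0.46), CFAP298 (-0.45) and RSPH14 (-0.83) completed the list and did not pass the test. These comparisons share libraries, so the CFAP70 and CFAP91 values of DATG enter both.

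**Figure D5:**
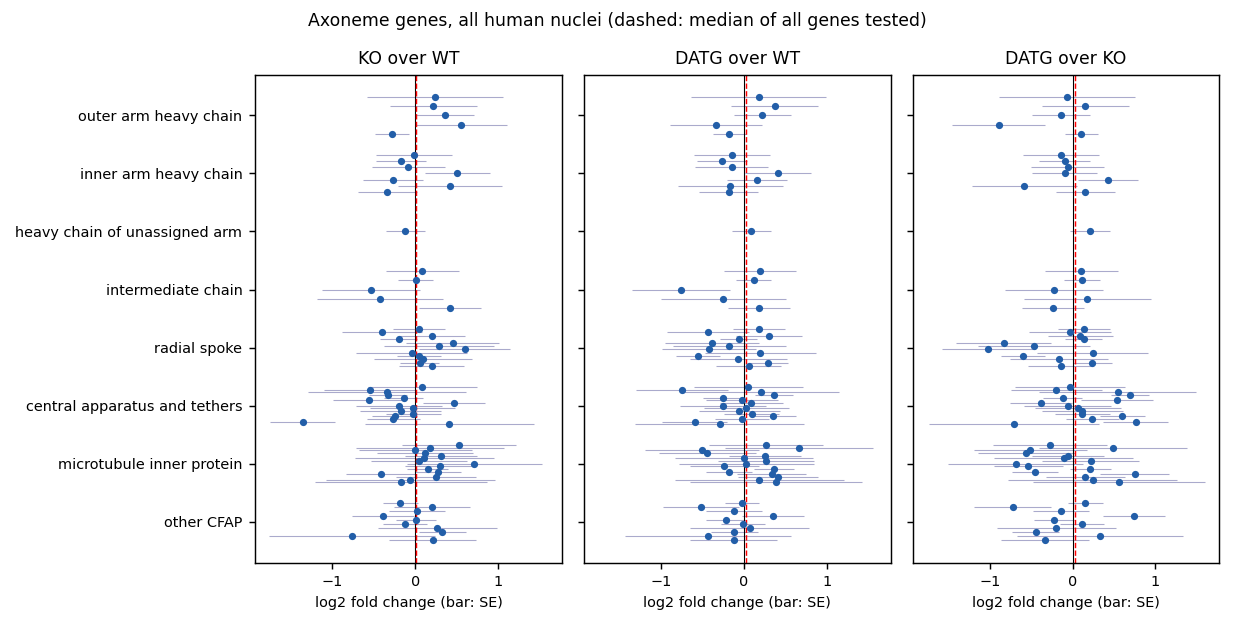
Log2 fold change of each axoneme gene over all human nuclei (point) with its standard error (bar), by role, for KO over WT, DATG over WT and DATG over KO. The dashed line marks the median of all genes tested, 0.01, 0.03 and 0.03 in the 3 panels, and 39, 34 and 33 of the 70 genes lie above 0.

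Leaving out DATG replicate 1 changed these counts. With DATG replicate 2 as the only DATG library, assumed to vary like the other groups, 10 genes were lower in DATG than in WT, where 7.07% of 27580 genes were, and 15 lower and 1 higher in DATG than in KO, where 15% and 9.49% of genes were. The lists shared 9 genes, which were 90% of the first and 56.2% of the second: DNAH9, DNAH10, DNAI3, CFAP52, CFAP61, CFAP77, CFAP100, CFAP157 and CFAP299. DNAH9, for example, was at 45.7 and 5.07 CPM of total human UMIs in DATG, 27.8 and 27.7 CPM in KO and 25.1 and 22.7 CPM in WT libraries, so the DATG libraries lay on either side of all the others. Without DATG replicate 2, 0 axoneme genes passed in either comparison, where 0.285% of 27686 genes did against WT and 0.0108% against KO. DATG replicate 2 also had the fewest floor plate-like nuclei, 12, and the most mixed-species barcodes; their part in these values was not tested.

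Levels within each cluster were compared to separate them from cluster size. Within floor plate-like nuclei, the 5 libraries with at least 20 such nuclei entered the fit, so DATG had 1 library, assumed to vary like the others. The summed level was 4173 CPM in DATG replicate 1, 3733 and 4895 CPM in KO and 3274 and 5220.4 CPM in WT libraries. Of 60 axoneme genes tested with edgeR, 0 passed for KO against WT, where 0.00756% of 13223 genes did, and 0 for DATG against WT and for DATG against KO, where 0% did. At an unadjusted p under 0.05 there were 3 axoneme genes for KO against WT (2.62% of all genes), 3 for DATG against WT (5.80%) and 1 for DATG against KO (4.92%). DESeq2 called 4 (0.0303%), 8 (0.0605%) and 0 genes in that order, with 0 axoneme genes among them. DNAH9 was at 260.3 CPM in DATG replicate 1, 182 and 315 CPM in KO and 70.0 and 265 CPM in WT libraries, so WT replicate 1 was the lowest. The 18 ciliated markers summed to 1735 CPM in DATG replicate 1, 1331 and 2226 CPM in KO and 949 and 2307 CPM in WT. Of these sums, CDHR3 alone gave 867 CPM in DATG replicate 1, 604 and 1158 CPM in KO and 256 and 1077 CPM in WT. WT replicate 1 was also lowest of the 5 libraries for TPPP3, ZBBX, ADGB and VWA3A, but not for LRRIQ1, ARMC3, VWA3B, ERICH3 or TTC29. With CDHR3, these are the 10 ciliated markers that passed in this cluster. The part of these markers in the gene levels was not tested. Leaving out a WT library left 1 WT library, assumed to vary like the others. Without WT replicate 2, CFAP77 and DNAH9 were higher in KO than in WT, where 1.46% of genes were. For DATG against WT the same step left 1 library in each group, with the spread taken from the 2 KO libraries alone, so its calls compare those libraries and not the groups. They were CFAP77 and DNAH9, higher in DATG, without WT replicate 2 (3.32% of genes), and DNAH6, CFAP157 and DNAI2, lower in DATG, without WT replicate 1 (0.686% of genes).

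Within choroid plexus-like nuclei, a comparison added after the data were seen, 60 genes were tested over all 6 libraries, and 0 passed in each of the 3 comparisons, where 0% of 12635 genes did. At an unadjusted p under 0.05 there were 0 axoneme genes for KO against WT (1.99% of all genes), 1 for DATG against WT (1.35%) and 0 for DATG against KO (2.82%). DESeq2 called 2 (0.0158%), 0 and 1 (0.00791%) genes in that order, with 0 axoneme genes. The 1 gene was CFAP70, at 214 and 146 CPM in DATG, 141 and 123 CPM in KO and 99.8 and 115 CPM in WT libraries (DATG over WT log2 fold change 0.78, SE 0.29, adjusted p = 1.00 by edgeR).

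The DATG libraries were far apart in these nuclei. DNAH9 was at 339 and 31.6 CPM in DATG, 135 and 142 CPM in KO and 156 and 149 CPM in WT. CFAP299 was at 425 and 51.9 CPM in DATG, 263 and 302 CPM in KO and 242 and 212 CPM in WT. CFAP54 was at 556 and 197 CPM in DATG, 312 and 292 CPM in KO and 329 and 309 CPM in WT. For each of them DATG replicate 1 was the highest and DATG replicate 2 the lowest library. Other axoneme genes did not follow. DNAH14 was at 391 and 512 CPM in DATG, 478 and 468 CPM in KO and 540 and 364 CPM in WT libraries. For DNAH11, CFAP91, CFAP70 and RSPH9, too, DATG replicate 2 was not the lowest library. Without DATG replicate 1, 13 genes were lower in DATG than in WT, where 2.63% of 13483 genes were, and 13 lower in DATG than in KO, where 3.92% were. The lists shared 11 genes: DNAH5, DNAH9, DNAH10, DNAI3, CFAP52, CFAP61, CFAP77, CFAP95, CFAP100, CFAP157 and CFAP299. The cluster's 12 markers summed to 12198 and 3934 CPM in DATG, 7715 and 6184 CPM in KO and 5726 and 6574 CPM in WT. They did not all move alike. RSPO2 (565 and 2424 CPM), WNT8B (20.3 and 40.7 CPM) and LMX1A (452 and 511 CPM) were higher in DATG replicate 2 than in DATG replicate 1. The other markers were lower there, HTR2C (5970 and 542 CPM) and OTX2 (324 and 314 CPM) among them. TTR, a defining choroid plexus marker, was at 7.1 CPM in DATG replicate 2, against 621 to 4175 CPM in the other libraries. The 18 ciliated markers summed to 1732 and 424 CPM in DATG, 974 and 907 CPM in KO and 1022 and 860 CPM in WT libraries. Their part in the gene levels was not tested.

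Related ciliary gene lists gave the same counts over all human nuclei. None of 50 tested genes of 53 other motile cilia genes, 18 of 21 dynein arm assembly factors, 18 of 20 regulators of multiciliated cells or 28 of 32 intraflagellar transport genes passed edgeR's test in any of the 3 comparisons. One regulator had an unadjusted p under 0.05 for DATG against KO by edgeR, where 6.11% of all genes did. It was RFX2, an X-box binding factor, at 104 and 84.1 CPM in DATG and 130.3 and 217 CPM in KO libraries. In WT libraries it was at 116 and 143 CPM. Its DATG over KO log2 fold change was -0.89 (adjusted p = 0.671 by edgeR). The median log2 fold changes for KO over WT were 0.08, 0.10, -0.03 and -0.01 in the order of the lists, against 0.01 over all genes. For DATG over WT they were -0.04, -0.05, -0.16 and -0.03, against 0.03, and for DATG over KO -0.14, -0.15, -0.25 and -0.03, against 0.03.

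By the summed axoneme level over the 29 clusters, the human genes with the most similar pattern were VWA3A (Pearson's r 0.936), SPAG8 (0.934) and SPATA17 (0.927), followed by PPIL6, DNAAF1, SERPINI2, EFCAB6, ZBBX, UBXN11 and TEKT1, down to 0.872. VWA3A and ZBBX are also on the ciliated marker list. VWA3A had 59.2% of its 2231 UMIs in the axoneme-rich clusters. Among the axoneme genes themselves the likeness to the sum ranged from -0.11 for DNAH17 and -0.03 for CFAP161 to 0.93 for CFAP43. The clusters share libraries and depth, and no test was made of these values.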

How the data were processed

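Nuclei of flash-frozen teratomas were profiled with 10x 3′ chemistry, and the deposited matrices hold UMI counts per gene and barcode. The submitters' processing notes list Cell Ranger 8.0.1, while the file headers name 8.0.0. No source used here gives the intron, strand or annotation settings, so reads of overlapping genes (43 of the 71 axoneme genes overlap another gene) may not be separable. Barcodes were kept with at least 500 UMIs, 300 genes and 90% of UMIs from one species, and the barcodes with the highest scrublet scores were removed as doublets at an assumed 0.8% per 1000 nuclei (4.44% to 9.80% of human nuclei in a library). Human nuclei were clustered without the axoneme genes (scanpy 1.11.5). Counts summed per library were tested with edgeR 4.0.16 (quasi-likelihood, TMM, filterByExpr, Benjamini-Hochberg adjustment over all genes, threshold 0.05), fitted to all 6 libraries, or within a cluster to those with at least 20 nuclei. The fit was tested on simulated data. CPM (from the deposited counts) are scaled to a common total of human UMIs, and fold changes are log2.

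The members and lists were chosen with earlier results of these data known. The planned comparison within ciliated-like nuclei was made in floor plate-like nuclei, the cluster with most ciliated markers, because no cluster took that name. The choroid plexus-like comparison was added after the data were seen. Genes named between groups were the 4 with the smallest p in each direction among those with a mean of at least 1 CPM whose 2 groups do not overlap. By role the text names the 3 genes with most UMIs and, over all roles, the 5 with the largest and the 5 with the smallest share in the 2 axoneme-rich clusters, and of genes outside the 71 the 10 whose log2(CPM + 1) over clusters was most like that of the sum; other members are named with their values. Replicate numbers did not pair the samples: correlations of deviations were 0.34 for DATG with KO, -0.15 for DATG with WT and 0.10 for KO with WT. Alternatives were DESeq2 1.42.0, other filters, normalizations and clusterings, a replicate block and leaving out each library.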

Additional observations from a re-analysis of the deposited data

Results flagged for a closer look

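The shares of the 2 axoneme-rich clusters differed in opposite directions between KO and WT: the log2 fold change of the share of nuclei was 1.18 for floor plate-like nuclei and -1.59 for choroid plexus-like nuclei, with each KO library on the same side of both WT libraries. Neither share passed the test, and the difference between the clusters was not tested. DNAH1, an inner arm heavy chain, had a log2 fold change for KO over WT of 0.68 (SE 0.72) within floor plate-like nuclei. Within choroid plexus-like nuclei it was -0.36 (SE 0.61), with the libraries apart in opposite directions. DNAH1 had only 58 and 89 UMIs in these clusters, in that order, over all libraries. Over all human nuclei, both KO libraries lay above both WT libraries for 23.4% of genes and below both for 22.2%. The DNAH1 difference between the clusters was not tested either.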

How the results depend on the processing

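Of the main values, 169 kept their direction and size under the alternatives run, 13 moved and 8 reversed; of 325 values for named genes, 322 kept their call, 3 gained one and 0 reversed. The 3 were DNAI3 for DATG over WT (-2.01), and CFAP410 (1.08) and RSPH14 (-1.92) for DATG over KO, all without DATG replicate 1. Leaving out 1 library in turn, the count of axoneme genes called over all nuclei was 0 for KO against WT, 0 to 10 for DATG against WT and 0 to 16 for DATG against KO. Within floor plate-like nuclei calls came only when a WT library was left out, and within choroid plexus-like nuclei only without DATG replicate 1. These too are given above, with the shares of all genes or, for KO against WT within floor plate-like nuclei, with log2 fold changes. The log2 fold change of the floor plate-like share ranged from 0.84 to 1.64 (KO over WT), -2.88 to 1.67 (DATG over WT) and -4.06 to 0.49 (DATG over KO). For choroid plexus-like nuclei, clustering resolution 0.5 gave 0.43 (KO over WT), -0.52 (DATG over WT) and -0.95 (DATG over KO) for a cluster of 8210 nuclei, against 1383, resolution 2 gave -0.046 for DATG over WT, and leaving out 1 library gave -0.42 to 0.86 for DATG over WT; the cause of the last 2 was not tested. The mean share of nuclei with at least 5 axoneme genes was 19.3% in DATG, 28.0% in KO and 28.5% in WT without thinning, and with at least 3 it was 19.9% in DATG, 23.5% in KO and 23.7% in WT. With the replicate number as a block, 0 axoneme genes were called, where over all human nuclei 0% of 26608 genes were. The log2 fold changes of floor plate-like shares were then 1.14 (KO over WT), 0.28 (DATG over WT) and -0.86 (DATG over KO). Those of choroid plexus-like shares were -1.56, 0.22 and 1.79 in that order. With the 4 KO and WT libraries fitted alone, 548 of 26034 genes (2.1%) and 0 of 70 axoneme genes were called. With 2 libraries a group, and DATG replicate 2 apart, depth and number limit what differences can be detected.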
